A study of Mus musculus with 14 samples.

Results

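The surface receptors with which a myeloid cell reads antibodies, sialic acids, lipids and its neighbours were followed in mouse MLL-AF9-Cas9+ leukemia cells that carried a guide RNA against Sgf29 or a control guide. The set was taken by gene symbol from the deposited count table. It holds every row beginning with Lilr, Pira, Pirb, Siglec, Clec and a digit, Cd300, Fcgr, Fcer, Trem or Sirp, and 15 rows named singly (Cd14, Cd33, Cd68, Cd80, Cd86, Cd52, Cd53, Cd48, Adgre1, Adgre5, Tyrobp, Hcst, Mrc1, Msr1 and Marco). This gave 88 of the 22155 genes in the table. Of these genes, 17 had no read in any library, 23 had too few reads to be tested and 48 were tested. In the cells with the Sgf29 guide, 37 of the 48 rose, 3 fell and 8 were not called. Over all 11169 genes tested, 35.4% rose and 34.4% fell.

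The cells were made from lineage-negative mouse bone marrow by retroviral delivery of the fusion oncogene MLL-AF9, and express the nuclease Cas9. SGF29 is a Tudor-domain protein that reads methylated lysine 4 of histone H3 within the SAGA and ATAC chromatin complexes, and the comparison asks how transcripts differ in leukemia cells in which its gene is targeted. Both groups carried the same lentiviral vector, ipUSEPR, with sgCtrl in 3 libraries and sgSgf29 in the other 3, and both were selected in puromycin at 2 μg/ml for 3 days. Messenger RNA was sequenced, and the series holds 14 samples in all, of which the 8 chromatin immunoprecipitation and input samples were not analysed here. The labels number the libraries of each group 1 to 3 without saying whether a number stands for a culture or for a guide sequence, so every p-value rests on the spread among libraries alone, and that spread may be technical. The labels name no step that would make the cells a clone. In such bulk RNA, a smaller number of cells expressing a gene and less RNA per cell cannot be told apart.

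Gene counts came to between 16003990 and 21786618 per library. Sgf29 itself stood at 36.2, 40.4 and 40.4 CPM under sgCtrl and 12.6, 13.4 and 17.4 CPM under sgSgf29 (log2 fold change -1.43 ± 0.107, SE, adjusted p = 2.88e-10), so that the targeted transcript fell but was still detected. An opposite-strand gene overlaps its exons. CPM are counts per 1000000 gene counts after trimmed mean of M-values (TMM) scaling. Ribosomal protein genes took 19.2% ± 0.369 (SD, n = 3) of sgCtrl gene counts and 12.6% ± 0.892 of sgSgf29 gene counts, and the TMM factors were 0.923 ± 0.00914 and 1.08 ± 0.0199. Ptprc, Hoxa9, Meis1, Itgam and Kit, which leukemic myeloid progenitor cells of this kind express, were read in all 6 libraries. Itgam, an integrin of maturing myeloid cells, rose by 1.96 on the log2 scale and Ptprc by 0.65. The progenitor genes went in both directions: Meis1 rose by 0.46, whereas Hoxa9 and Kit fell (log2 fold changes -1.37 and -0.74). B cell markers summed to at most 1.27 CPM, T cell markers to at most 0.703 CPM, and natural killer, mast cell or basophil, eosinophil, erythroid, megakaryocyte and dendritic cell markers each to at most 10.3 CPM in any library. The natural killer list went from 8.20 to 9.49 CPM under sgCtrl down to 2.98 to 4.34 CPM under sgSgf29, where Nkg7 fell, and the mast cell or basophil list from 9.44 to 10.1 CPM down to 2.79 to 3.91 CPM, where Mcpt8 fell. The megakaryocyte list went from 8.91 to 10.3 CPM down to 5.91 to 7.85 CPM, where Itga2b fell. Ms4a1, Cd3e, Cd4, Cd8a, Eomes, Cpa3, Tpsb2, Cma1, Il5ra, Hbb-bs, Hba-a1 and Pf4 were at 0 throughout. Plasmacytoid dendritic cell markers, mostly Bst2, summed to 63.7 to 71.6 CPM under sgCtrl and 53.1 to 57.1 CPM under sgSgf29, with Ly6d at 0.

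Many receptors of these families have a relative of opposite sign. Most activating receptors have a short tail and signal through a partner chain. Such chains are DAP12 (gene Tyrobp), DAP10 (Hcst) and the common Fc receptor gamma chain (Fcer1g). DAP12 and the gamma chain carry the tyrosine motif that recruits the kinase SYK. An inhibitory receptor carries its own tyrosine motif, which recruits the phosphatases SHP-1, SHP-2 or SHIP-1 and raises the threshold for activation. Such receptors are sparse on early myeloid progenitors and are gained as granulocytes and monocytes mature.

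The genes with the largest changes include 3 neighbours whose upstream sequences are nearly the same. The bases just upstream of the annotated RefSeq start are shown for the Pirb, Pira2 and Lilra6 genes of chromosome 7, for the Lilr4b, Fcgr1, Fcgr4 and Fcgrt genes, which also rose, and for the C-type lectins Clec7a and Clec2d, which fell. They are read from GRCm38.p6 on the strand of the gene, 5′ to 3′, and leave out bases that lie within another transcript of the gene. Capitals mark the letters AGGAAG on either strand, the core bound by ETS factors such as PU.1, a main regulator of myeloid genes.
Pirb, chr7:3720383-3720632, minus strand: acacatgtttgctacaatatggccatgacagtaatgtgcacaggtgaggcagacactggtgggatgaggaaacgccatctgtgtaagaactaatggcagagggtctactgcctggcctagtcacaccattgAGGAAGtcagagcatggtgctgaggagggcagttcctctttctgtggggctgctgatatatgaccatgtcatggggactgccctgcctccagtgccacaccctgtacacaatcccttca
Pira2, chr7:3845105-3845301, minus strand: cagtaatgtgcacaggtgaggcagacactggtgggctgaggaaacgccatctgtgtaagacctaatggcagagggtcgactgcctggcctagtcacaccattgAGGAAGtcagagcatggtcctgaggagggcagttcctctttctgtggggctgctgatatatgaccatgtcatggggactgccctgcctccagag
Lilra6, chr7:3915572-3915751, minus strand: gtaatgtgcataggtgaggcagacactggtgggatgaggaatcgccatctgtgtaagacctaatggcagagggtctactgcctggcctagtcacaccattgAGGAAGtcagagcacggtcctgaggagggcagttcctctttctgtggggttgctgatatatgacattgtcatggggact
Lilr4b, chr10:51480362-51480611, plus strand: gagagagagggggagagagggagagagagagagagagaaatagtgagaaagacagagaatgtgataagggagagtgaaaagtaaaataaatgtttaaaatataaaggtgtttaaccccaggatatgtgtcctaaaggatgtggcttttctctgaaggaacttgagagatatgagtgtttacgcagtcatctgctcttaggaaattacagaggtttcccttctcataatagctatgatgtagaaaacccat
Fcgr1, chr3:96293970-96294219, minus strand: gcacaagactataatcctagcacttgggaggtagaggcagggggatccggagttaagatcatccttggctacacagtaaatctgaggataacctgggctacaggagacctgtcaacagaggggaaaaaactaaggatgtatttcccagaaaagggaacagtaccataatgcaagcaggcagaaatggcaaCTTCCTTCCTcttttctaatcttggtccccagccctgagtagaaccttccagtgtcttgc
Fcgr4, chr1:171018676-171018925, plus strand: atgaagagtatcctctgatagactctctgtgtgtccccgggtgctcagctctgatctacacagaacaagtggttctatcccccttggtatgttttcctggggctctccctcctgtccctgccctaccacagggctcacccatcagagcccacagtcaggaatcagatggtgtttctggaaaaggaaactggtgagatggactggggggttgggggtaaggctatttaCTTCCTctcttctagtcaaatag
Fcgrt, chr7:45103823-45104072, minus strand: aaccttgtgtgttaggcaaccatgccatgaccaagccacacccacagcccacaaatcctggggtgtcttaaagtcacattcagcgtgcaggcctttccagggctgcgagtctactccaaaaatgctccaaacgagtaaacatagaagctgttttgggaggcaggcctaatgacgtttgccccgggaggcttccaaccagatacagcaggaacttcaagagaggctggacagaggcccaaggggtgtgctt
Clec7a, chr6:129472786-129473029, minus strand: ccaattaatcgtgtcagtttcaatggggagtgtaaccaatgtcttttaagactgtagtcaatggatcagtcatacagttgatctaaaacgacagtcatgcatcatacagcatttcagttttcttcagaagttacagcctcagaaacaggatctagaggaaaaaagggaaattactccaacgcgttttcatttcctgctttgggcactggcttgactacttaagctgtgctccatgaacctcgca
Clec2d, chr6:129180365-129180614, plus strand: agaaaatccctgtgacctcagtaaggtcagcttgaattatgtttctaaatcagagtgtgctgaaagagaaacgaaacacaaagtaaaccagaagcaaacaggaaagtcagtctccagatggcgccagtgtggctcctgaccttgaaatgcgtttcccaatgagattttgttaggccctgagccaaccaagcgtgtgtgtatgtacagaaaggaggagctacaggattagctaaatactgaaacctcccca
The Pira2 and Pirb sequences were identical at 97.5% of 197 aligned bases, and Lilra6 matched either at 95.6% of 180. The AGGAAG of these 3 lies in a shared stretch. Fcgr1 holds 2 overlapping matches and Fcgr4 holds 1, whereas these letters are absent from the windows of Lilr4b, Fcgrt, Clec7a and Clec2d. Clec4d, which also fell and is not shown, holds 1 match in its window.

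RefSeq gave an upstream sequence for 67 of the 88 genes. Within the 250 bases before the start, AGGAAG was found in 42 of the 67 (62.7%), against 28.4% of the 16340 genes of the table with such a sequence. Among the receptors that rose, 22 of 30 with a sequence held it (73.3%), against 31.2% of all genes that rose, and among all tested receptors 65.8% held it, against 28.2% of all tested genes. The letters TTNNGNAA, a loose form of the site of C/EBP factors, were in 38 of 67 receptor windows (56.7%) against 34.3% of all windows. They were as common as AGGAAG among the receptors that rose, in 22 of 30 (73.3%), against 28.8% of all genes that rose. Among all tested receptors 73.7% held them, against 28.5% of all tested genes. Of the 3 receptors that fell, 1 held AGGAAG (33.3%), against 26.1% of all genes that fell. TTNNGNAA was in 2 of these 3 (66.7%), against 28.5% of all genes that fell. For TGTGGT, the core of RUNX sites, the shares were 22.4% and 12.2%, for TGANTCA, the AP-1 site, 13.4% and 6.23%, for TATAAA, the TATA box, 17.9% and 11.9%, and for CACGTG, an E-box, 5.97% and 6.80%. All were searched on both strands. A match describes letters in a window and not a bound site, and windows of related genes, such as the 3 shown, are not independent of each other.

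Across the set, 37 of 48 tested genes rose (77.1%) where 35.4% of the 11169 genes tested rose, and 3 fell (6.25%) where 34.4% of all tested genes fell. Of the receptors, 27 rose by 2-fold or more, against 10.1% of all genes, and 2 fell by that much, against 4.67%. In 37 genes every sgSgf29 library was above every sgCtrl library, against 37.0% of all genes, and in 4 every sgSgf29 library was below, against 35.1%. The median log2 fold change was 1.28 over the 48 genes, also with Fcgr1 set to its lower bound, and 0.01 over all tested genes. A filter on low counts was passed by 41 of the 48 through both groups. The other 7 (Clec4f, Clec4n, Fcgr1, Lilra6, Pira2, Siglecg and Siglece) passed it through the sgSgf29 libraries alone. All 3 sgSgf29 libraries reached its cutoff, and at most 1 sgCtrl library did. Such genes were tested on their sgSgf29 level, which favours genes higher there, although Clec4f overlapped between the groups. Of the 41, 31 rose, 3 fell and 7 were not called. With genes held to a mean of at least 10 CPM over both groups, 28 of 35 receptors rose and 2 fell, with a median of 1.05, while 35.3% of the 8552 genes of that level rose and 38.9% fell. As a share of all gene counts, the 88 genes took 0.297% ± 0.00425 (SD, n = 3) under sgCtrl and 0.552% ± 0.0112 under sgSgf29.

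**Figure D1:**
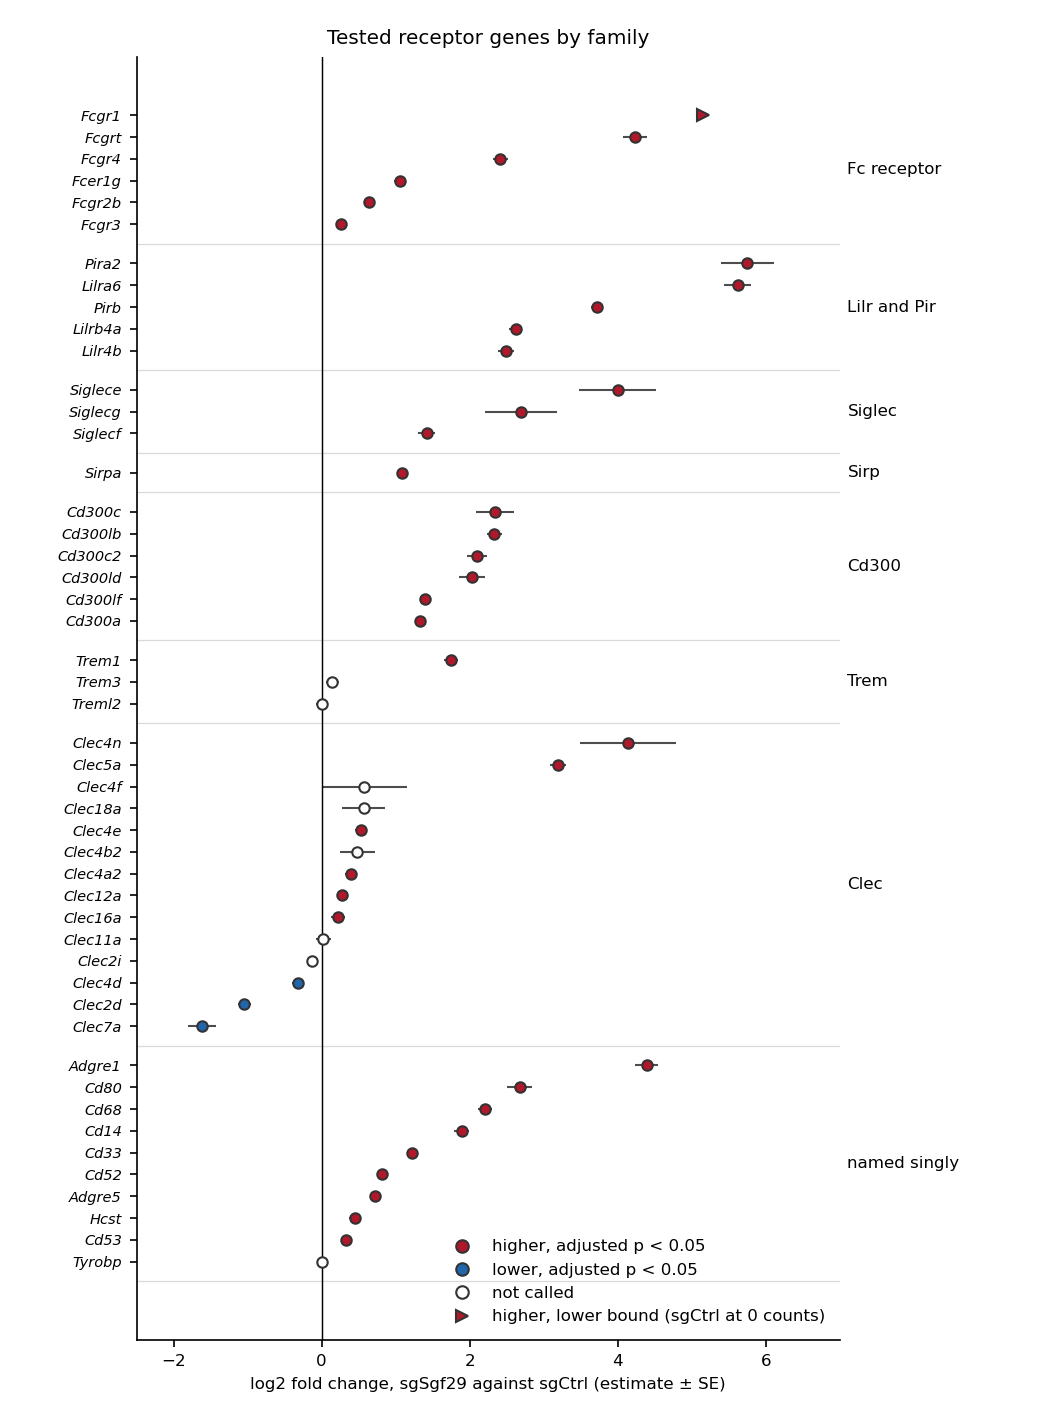
Log2 fold change of sgSgf29 against sgCtrl on the horizontal axis for the 48 tested receptor genes, grouped by family, with red, blue and open points for higher, lower and uncalled genes and bars for the SE. Fcgr1, at 0 counts in sgCtrl, is drawn as a lower bound, and the 3 blue points, Clec7a, Clec2d and Clec4d, all belong to the Clec family.

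The adapters did not move as one. Tyrobp, whose product DAP12 partners receptors of the TREM, SIRP-beta, CD300 and CLEC5A kind, stood at 657, 639.6 and 609 CPM under sgCtrl and at 682, 601 and 631 CPM under sgSgf29. These groups overlap, and the log2 fold change of 0.01 had a 95% interval of -0.14 to 0.15 (adjusted p = 0.943). With library size in place of TMM it was called higher, at 0.24 (adjusted p = 0.0022), a scaling under which the median of all genes moved from 0.01 to 0.24, and it turned to -0.00 with RLE scaling, with TMM without ribosomal protein genes and in DESeq2. Fcer1g, the gamma chain used by activating Fc receptors and by PIR-A, went from 97.7, 81.8 and 98.6 CPM to 205, 184 and 188 CPM in the same order of libraries (log2 fold change 1.05 ± 0.0745, SE, adjusted p = 1.17e-10). Every sgSgf29 library was above every sgCtrl library by a wide margin. Hcst, whose product DAP10 recruits phosphoinositide 3-kinase, was at 53.4, 41.3 and 46.3 CPM under sgCtrl and 65.7, 63.1 and 64 CPM under sgSgf29 (log2 fold change 0.45 ± 0.0801, adjusted p = 4.48e-05). Its groups did not overlap either, but the rise was smaller and could not be told from 1.5-fold or less.

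Tyrobp and Hcst lie side by side on chromosome 7 (chr7:30413782-30419854, GRCm38.p6). Per kilobase of exon, the only scale on which genes are set against each other here, Tyrobp was the most abundant transcript of the set in both groups, at 952 ± 35.8 (SD, n = 3) and 956 ± 61.8 CPM per kilobase. Fcer1g stood at 106 ± 10.8 in sgCtrl and 220.4 ± 12.6 CPM per kilobase in sgSgf29, which moved it from the fourth to the third place. Its ratio to Tyrobp on this scale was 0.114, 0.0976 and 0.123 under sgCtrl and 0.230, 0.234 and 0.228 under sgSgf29. The gamma chain transcript was thus more abundant relative to Tyrobp in each sgSgf29 library than in any sgCtrl library.

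**Figure D2:**
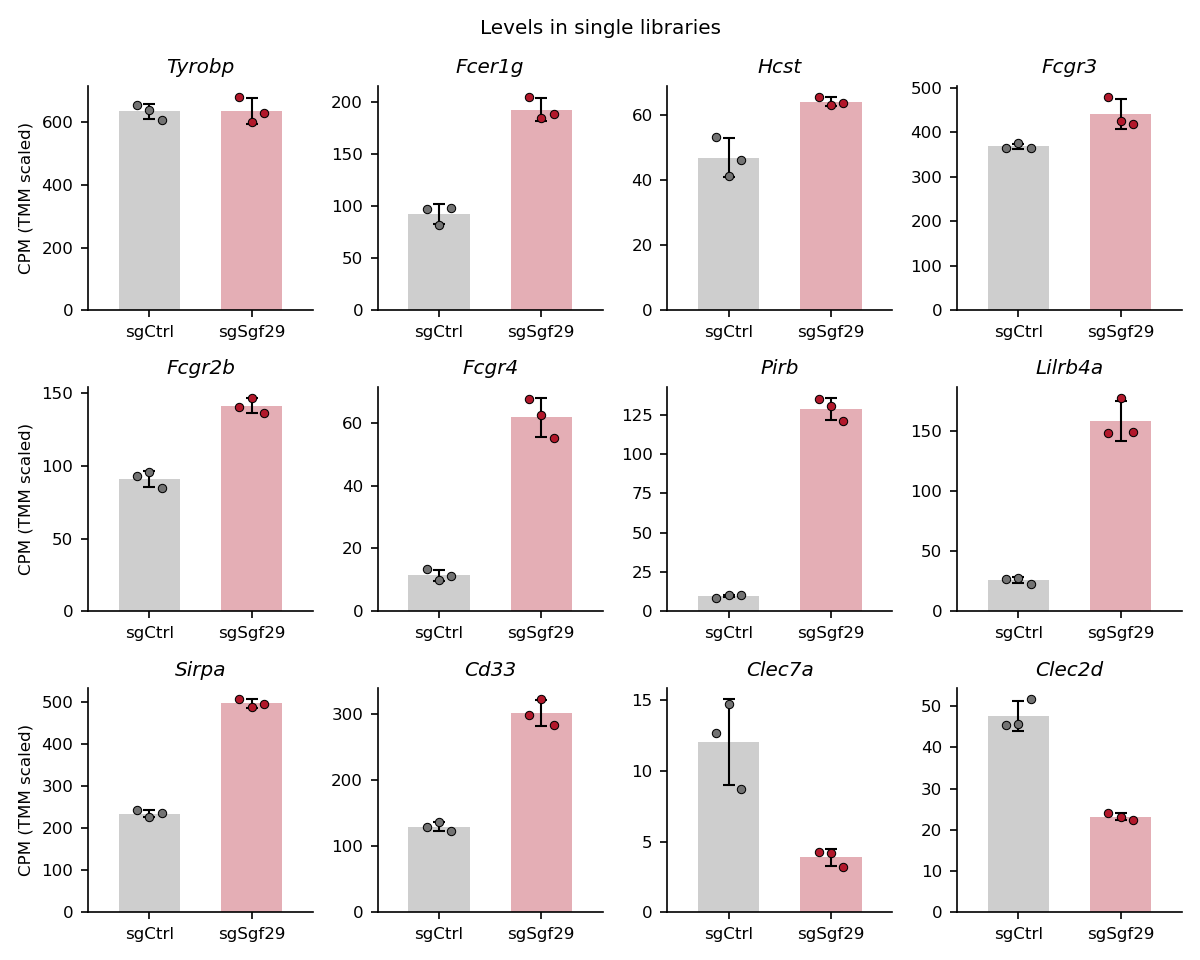
CPM after TMM scaling for 12 receptor and adapter genes, with 1 point per library, bars for the mean of 3 libraries and error bars for the SD, each axis starting at 0. Tyrobp overlaps between the groups, Clec7a and Clec2d are lower in all 3 sgSgf29 libraries, and the other 9 genes are higher in all 3.

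All 6 tested Fc receptor genes rose. The smallest log2 fold change was 0.26, and Fcgr1 was read in the sgSgf29 libraries only. Fcgr1 passed the filter through those libraries alone, so it had to be higher there to be tested at all. The 5 that passed through both groups, the adapter gene Fcer1g among them, all rose, against 35.4% of all tested genes. Fcgr3, the low-affinity activating receptor for immunoglobulin G, had 365, 375 and 365 CPM in sgCtrl and 479.8, 424 and 419 CPM in sgSgf29 (log2 fold change 0.26 ± 0.0672, SE, adjusted p = 0.00185). Fcgr4, the activating receptor typical of mature neutrophils and monocytes, had 13.4, 9.91 and 11.3 CPM and 67.6, 62.4 and 55.2 CPM (log2 fold change 2.41 ± 0.103, adjusted p = 4.80e-14). Both pairs of groups are apart, Fcgr3 narrowly and Fcgr4 by 5.34-fold in its means. Fcgr1, the high-affinity receptor, had no count in any sgCtrl library and 37, 44 and 44 counts in the sgSgf29 libraries, at 2.17, 1.98 and 2.15 CPM. Against a floor of 3 counts over the sgCtrl group this is at least 35.4-fold higher (adjusted p = 3.17e-08).

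Fcgr2b, the only inhibitory Fc receptor for immunoglobulin G, was at 92.8, 95.7 and 85.2 CPM under sgCtrl and 141, 147 and 137 CPM under sgSgf29 (log2 fold change 0.63 ± 0.0655, adjusted p = 3.31e-08). Fcgrt, which encodes the neonatal Fc receptor that returns immunoglobulin G and albumin from endosomes to the surface, rose from 3.3, 1.74 and 1.8 CPM to 48.1, 41.4 and 37.6 CPM (log2 fold change 4.23 ± 0.162, adjusted p = 9.97e-15). It was barely read in sgCtrl and plainly read in each sgSgf29 library. Fcer1a, the alpha chain of the mast cell receptor for immunoglobulin E, was at 0 in all libraries, and Fcer2a had 1 count in sgCtrl and 0 in sgSgf29.

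The make-up of the activating Fc receptors differed, while the ratio of their sum to the inhibitory one differed less. Per kilobase of exon, Fcgr4 amounted to 0.0508, 0.0365 and 0.0429 of Fcgr3 under sgCtrl and to 0.195, 0.203 and 0.182 under sgSgf29. Fcgr1, Fcgr3 and Fcgr4 together were 13.8, 13.5 and 14.9 times Fcgr2b in sgCtrl and 13.6, 11.6 and 12.1 times in sgSgf29. The groups of the first ratio are well apart, and those of the second come close to each other, with sgSgf29 replicate 1 just above the lowest sgCtrl library. Fcgr2b, Fcgr4, Fcgr3 and Fcer1g share one stretch of chromosome 1 (chr1:170960558-171705258) with Cd48, an adhesion ligand at 0 counts in every library. An opposite-strand gene, Gm38204, overlaps exons of Fcgr2b, and the strand setting of the counting is not given in the sources used here.

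The leukocyte immunoglobulin-like receptors and paired immunoglobulin-like receptors had 5 tested genes, all called higher. Of these, Lilra6 and Pira2 passed the filter through the sgSgf29 libraries alone, and 35.4% of all tested genes rose. Pirb, an inhibitory receptor for class I molecules, had 8.77, 10.2 and 10.3 CPM in sgCtrl and 135, 131 and 121 CPM in sgSgf29 (log2 fold change 3.72 ± 0.0843, SE, adjusted p = 7.73e-18). Lilrb4a, an inhibitory receptor of the gp49B kind, had 26.8, 27.9 and 23.2 CPM and 149, 178 and 149 CPM (log2 fold change 2.62 ± 0.0864, adjusted p = 9.80e-16). In both genes the lowest sgSgf29 library was more than 5 times the highest sgCtrl library. Lilr4b, next to Lilrb4a on chromosome 10, encodes gp49A, which lacks the inhibitory motif of gp49B, and had 9.79, 11 and 8.34 CPM and 52.8, 60.5 and 49.4 CPM (log2 fold change 2.49 ± 0.106, adjusted p = 4.63e-14).

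The activating members of the family were hardly read in sgCtrl. Lilra6 had 1.21, 0.536 and 0.45 CPM under sgCtrl and 33.7, 36.5 and 35.5 CPM under sgSgf29 (log2 fold change 5.62 ± 0.183, adjusted p = 8.02e-16). Pira2, an activating receptor that signals through the gamma chain, had 0.0635, 0.268 and 0.050 CPM and 6.45, 7.39 and 6.35 CPM (log2 fold change 5.75 ± 0.362, adjusted p = 1.96e-11), and 6.75 without sgCtrl replicate 2, the sgCtrl library with the most Pira2 reads. Both were low in all 3 sgCtrl libraries and present in all 3 sgSgf29 libraries. Lilra5 had a single count in 1 sgSgf29 library.

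Reads of these genes can be shared. Of all stretches of 100 bases in the annotated exons, 86.5% of those of Pira2 occur also in another annotated gene, mostly Gm15922, as do 29.0% of those of Lilrb4a, mostly Gm49339, 24.6% of those of Pirb and 13.5% of those of Lilra6. The counts of Pira2 are uncertain for that reason. Gm49339 also overlaps exons of Lilrb4a and Lilr4b on their own strand. Reads with several matches took 7.57% or less of the table in every library.

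All 6 tested Cd300 genes rose, inhibitory and activating ones alike, where 35.4% of all tested genes rose. The family reads phospholipids of dying cells and lies in a cluster on chromosome 11 (chr11:114889152-115135372) that holds 11 of its 12 genes. Cd300lf, an inhibitory receptor for ceramide and phosphatidylserine, had 78.3, 78.7 and 78.2 CPM in sgCtrl and 206, 218 and 194 CPM in sgSgf29 (log2 fold change 1.40 ± 0.0653, SE, adjusted p = 1.96e-13). Cd300a, also inhibitory, had 36, 36.2 and 38.6 CPM and 98.2, 92.8 and 88.8 CPM (log2 fold change 1.33 ± 0.0692, adjusted p = 1.01e-12). Their sgSgf29 means were 2.63-fold and 2.53-fold those of sgCtrl, with no overlap.

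Of the activating Cd300 genes, Cd300lb had 9.15, 11.7 and 10.6 CPM in sgCtrl and 55.9, 53.6 and 49.3 CPM in sgSgf29 (log2 fold change 2.33 ± 0.0968, adjusted p = 2.99e-14). Cd300c2 had 3.81, 3.68 and 3.35 CPM and 15.1, 15.4 and 15.8 CPM (log2 fold change 2.10 ± 0.136, adjusted p = 3.02e-11). Cd300ld had 3.37, 2.08 and 2.65 CPM and 10.2, 11 and 12 CPM (log2 fold change 2.03 ± 0.173, adjusted p = 1.89e-09). No sgSgf29 library of these 3 genes overlapped an sgCtrl library. Cd300c, read at 0.90 ± 0.123 CPM (SD, n = 3) and 4.62 ± 0.67 CPM, had a log2 fold change of 2.34 ± 0.256, next to that of Cd300lb. Cd300e (1 count in sgCtrl, 11 in sgSgf29), Cd300lg (5 and 40) and Cd300ld3 (0 and 4) were too low to test. Cd300ld2, Cd300ld4 and Cd300ld5 were at 0. Of the 100-base stretches of Cd300ld5, Cd300ld4 and Cd300ld3, 100%, 86.7% and 80.9% occur also in another annotated gene. Low or 0 counts of these genes are uncertain for that reason.

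Siglecs bind sialic acids on the cell's own glycans, and most carry inhibitory motifs. Cd33, a siglec used as a marker of myeloid leukemia, had 129, 137 and 124 CPM in sgCtrl and 299.6, 324 and 284 CPM in sgSgf29 (log2 fold change 1.22 ± 0.068, SE, adjusted p = 2.98e-12). Siglecf, best known from eosinophils, had 8.26, 11.6 and 9.94 CPM and 24.8, 27.8 and 26.8 CPM (log2 fold change 1.42 ± 0.115, adjusted p = 9.10e-10). Both more than doubled in every sgSgf29 library over the sgCtrl mean. Of the eosinophil markers, Epx rose from 0.0223 ± 0.0387 CPM (SD, n = 3) to 0.955 ± 0.382 CPM, while the whole list of 5 summed to at most 1.85 CPM with Il5ra at 0.

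The other 2 tested siglecs were low. Siglece, an inhibitory receptor of neutrophils and macrophages, was at 0.132 ± 0.134 CPM (SD, n = 3) in sgCtrl and 1.99 ± 0.268 CPM in sgSgf29, with the largest log2 fold change of the family, 4.0 ± 0.522 (adjusted p = 8.98e-07), which became 5.0 without sgCtrl replicate 2 and 3.31 without sgCtrl replicate 3. Siglecg was at 0.219 ± 0.0422 CPM and 1.41 ± 0.568 CPM and was also called higher. Siglech, a marker of plasmacytoid dendritic cells, and Siglec15 were at 0, and Siglec1, the sialoadhesin of tissue macrophages, had 0 counts in sgCtrl and 5 in sgSgf29. Siglecf, Siglecg, Cd33 and Siglece lie with Clec11a and Fcgrt on chromosome 7, within chr7:43351341-45103822, and 5 of those 6 genes rose. Of the 5, Siglecg and Siglece passed the filter through the sgSgf29 libraries alone, and 35.4% of all tested genes rose.

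Sirpa, the inhibitory receptor that binds CD47 and restrains phagocytosis, rose from 242, 226 and 236 CPM to 508, 487 and 494 CPM (log2 fold change 1.08 ± 0.0631, SE, adjusted p = 6.15e-12). Its means differed by 2.11-fold, with no overlap. Its activating relatives, which share sequence, stayed below the filter. Sirpb1b had 1 count in sgCtrl and 34 in sgSgf29, a ratio of 28.9 after TMM scaling (95% exact interval 4.84 to 1170, for counting error only), and Sirpb1c had 2 and 19. Sirpb1a had 1 and 4.

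Among the triggering receptors expressed on myeloid cells, 1 of 3 tested genes rose, where 35.4% of all tested genes rose. Trem1, an amplifier of inflammatory signals that acts through DAP12, had 11.9, 10.2 and 11.1 CPM in sgCtrl and 39, 38 and 34.5 CPM in sgSgf29 (log2 fold change 1.75 ± 0.0971, SE, adjusted p = 2.85e-12). Trem3, a mouse receptor beside it that also uses DAP12, had 30.9, 29.2 and 32.3 CPM and 31.5, 32.6 and 38.2 CPM, with overlapping groups (log2 fold change 0.15, 95% interval -0.04 to 0.33). Treml2 had 193, 196 and 178 CPM and 198, 196 and 173 CPM and likewise overlapped (log2 fold change -0.00, 95% interval -0.14 to 0.14). Library size scaling called both higher, at 0.38 and 0.23. The 3 genes and Trem2 (2 counts in sgCtrl, 12 in sgSgf29), Treml4 (23 and 30) and Treml1 (0 in all) share chr17:48232713-48367176, so the rise of Trem1 was not shared by its tested neighbours.

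The C-type lectins were the one family with genes in each direction. Of 31 genes 14 were tested, of which 6 rose, 3 fell and 5 were not called. Without Clec4n and Clec4f, which passed the filter through the sgSgf29 libraries alone, 5 of 12 rose, 3 fell and 4 were not called. Of all tested genes, 35.4% rose and 34.4% fell. Clec7a, which encodes Dectin-1, the receptor for fungal beta-glucan, had 12.7, 14.7 and 8.74 CPM under sgCtrl and 4.28, 4.19 and 3.22 CPM under sgSgf29 (log2 fold change -1.62 ± 0.185, SE, adjusted p = 1.43e-07). Clec2d, a ligand of the natural killer receptor NKR-P1, had 45.4, 45.7 and 51.8 CPM and 24.1, 23.1 and 22.3 CPM (log2 fold change -1.04 ± 0.0816, adjusted p = 5.40e-10). In both, each sgSgf29 library was below each sgCtrl library. Clec4d, a receptor for mycobacterial glycolipid, had 71.6, 72.3 and 72.3 CPM and 65.3, 53 and 55 CPM (log2 fold change -0.32 ± 0.0754, adjusted p = 7.48e-04). That call was lost with library size scaling, at -0.09 (adjusted p = 0.264).

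Clec5a, a DAP12-coupled activating receptor of neutrophils and monocytes, rose most among the well-read lectins, from 4.77, 4.55 and 5.75 CPM to 43.7, 49.8 and 45.9 CPM (log2 fold change 3.20 ± 0.11, adjusted p = 1.64e-15). Clec4e, or Mincle, which partners the product of Clec4d at the surface, had 32.6, 28.3 and 29.7 CPM and 40.3, 44.1 and 46.5 CPM (log2 fold change 0.53 ± 0.0822, adjusted p = 7.90e-06). It moved the other way from Clec4d, its neighbour. Clec12a, an inhibitory receptor common on myeloid leukemia cells, had 344, 326 and 325 CPM and 388, 397 and 422 CPM (log2 fold change 0.28 ± 0.0638, adjusted p = 6.31e-04). Clec4a2, an inhibitory receptor of dendritic cells and phagocytes, had 30.9, 28.1 and 29.2 CPM and 35.5, 40 and 40.6 CPM (log2 fold change 0.40 ± 0.0819, adjusted p = 2.16e-04). These last rises were small, below 1.5-fold in their means. Clec4n, or Dectin-2, had 3 counts in sgCtrl and 69 in sgSgf29, a ratio of 19.5 after TMM scaling (95% exact interval 6.41 to 97.0), and its log2 fold change of 4.14 ± 0.643 became 5.07 without sgCtrl replicate 2 and 3.47 without sgCtrl replicate 3.

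Clec16a, an intracellular protein and no surface receptor, had 21.6, 23.4 and 20.2 CPM and 26.8, 24.6 and 24.4 CPM and was called at an adjusted p of 0.0392, a call lost in DESeq2 (adjusted p = 0.0938) and without sgCtrl replicate 1, sgCtrl replicate 3, sgSgf29 replicate 1 or sgSgf29 replicate 2 (adjusted p = 0.0588 to 0.122). Clec2i had 41.4, 43.5 and 47.3 CPM and 41.3, 40.8 and 39.3 CPM, and Clec11a, a secreted growth factor, had 21.3, 19.8 and 22.5 CPM and 23.4, 19.5 and 22 CPM. The groups of Clec2i lie just apart and those of Clec11a overlap, and neither was called (log2 fold changes -0.12, 95% interval -0.28 to 0.03, and 0.02, 95% interval -0.18 to 0.23); Clec2i turned to 0.11 with library size scaling. Clec4b2, at 3.11, 4.35 and 3.25 CPM and 2.99, 5.36 and 6.35 CPM, overlapped and was not called either (log2 fold change 0.48, 95% interval -0.01 to 0.97). Clec4f and Clec18a, at under 3 CPM on average in both groups, were not called.

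Most lectins lie in a pair of stretches on chromosome 6. In chr6:122921848-123289871, with the Clec4 genes, 3 of 5 tested genes rose and 1 fell. Of the 3, Clec4n passed the filter through the sgSgf29 libraries alone. In chr6:128662385-129472785, with the Clec2, Clec12 and Clec7a genes, 1 of 4 rose and 2 fell. Over all tested genes, 35.4% rose and 34.4% fell. Below the filter, Clec4a3 had 1 count in sgCtrl and 40 in sgSgf29 (ratio 34.0, 95% exact interval 5.75 to 1370), and Clec4a1 had 3 and 19. Clec1b, Clec10a, Clec12b, Clec2e, Clec2g, Clec2l, Clec3b and Clec9a each had at most 14 counts in sgCtrl and 35 in sgSgf29. Clec14a, Clec1a, Clec2h, Clec3a, Clec4a4, Clec4b1 and Clec4g were at 0.

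**Figure D3:**
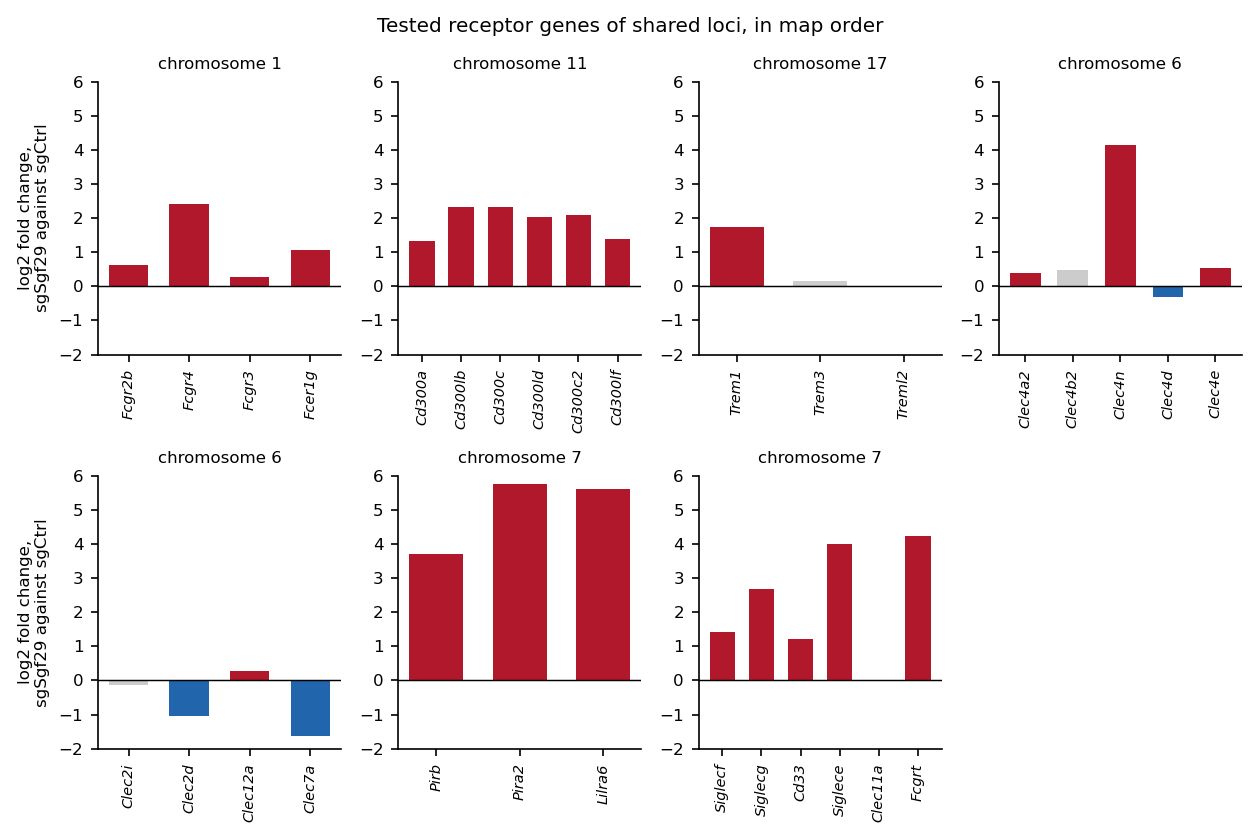
Log2 fold change of sgSgf29 against sgCtrl (vertical axis) for tested receptor genes in 7 loci with at least 3 such genes, in map order, with red bars for higher, blue for lower and grey for uncalled. The Fc receptor, Cd300 and Pir loci hold only bars above 0. The pair of lectin loci on chromosome 6 hold bars on each side. Pira2 and Lilra6 in the Pir locus, like Siglece, Siglecg and Clec4n, passed the filter through the sgSgf29 libraries alone.

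Of the tested genes named singly, 9 of 10 rose, Adgre1 by the most, where 35.4% of all tested genes rose. Adgre1, the adhesion receptor F4/80 that marks mouse macrophages, had 1.27, 1.14 and 1.1 CPM in sgCtrl and 24.4, 23.7 and 25.6 CPM in sgSgf29 (log2 fold change 4.39 ± 0.151, SE, adjusted p = 1.83e-15). Cd14, the coreceptor for lipopolysaccharide, had 15.6, 14.3 and 16.4 CPM and 65.7, 56.4 and 50.4 CPM (log2 fold change 1.89 ± 0.0984, adjusted p = 1.07e-12). Cd68, a glycoprotein of endosomes and lysosomes, had 13.7, 12.3 and 10.9 CPM and 60.4, 54.9 and 54.5 CPM (log2 fold change 2.21 ± 0.0923, adjusted p = 3.29e-14). All 3 were well apart between the groups. The scavenger and mannose receptors of tissue macrophages were not part of this: Mrc1 and Marco were at 0 in all libraries, and Msr1 had 3 counts in sgCtrl and 1 in sgSgf29.

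Cd80, a ligand of CD28 and CTLA-4 on T cells, had 1.91, 1.47 and 2.2 CPM in sgCtrl and 12.7, 11.5 and 12.1 CPM in sgSgf29 (log2 fold change 2.67 ± 0.173, adjusted p = 2.85e-11). Its partner in costimulation, Cd86, had 4 counts in sgCtrl and 3 in sgSgf29, so it was hardly read in either group. Adgre5, an adhesion receptor for CD55, had 157, 155 and 133 CPM and 255, 248 and 233 CPM (log2 fold change 0.73 ± 0.071, adjusted p = 1.44e-08). Cd52, a short lipid-anchored glycoprotein, had 109, 112 and 115 CPM and 201, 198 and 194 CPM (log2 fold change 0.82 ± 0.0612, adjusted p = 2.65e-10). Both exceed the sgCtrl libraries in all 3 sgSgf29 libraries, though an opposite-strand gene overlaps exons of each (Ddx39 with Adgre5 and Crybg2 with Cd52). The tetraspanin Cd53 had 265, 266 and 300.2 CPM and 348, 358 and 333 CPM (log2 fold change 0.32 ± 0.067, adjusted p = 2.27e-04).

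By role, 8 receptors with an inhibitory motif of their own passed the filter through both groups, and all 8 rose, with log2 fold changes from 0.28 to 3.72, as did the inhibitory Fcgr2b. Of 10 activating receptors outside the Fc family that passed through both groups, 7 rose, 2 fell and 1 was not called, with log2 fold changes from -1.62 to 3.20. Of all tested genes, 35.4% rose. The inhibitory Siglece and Siglecg and the activating Clec4n, Lilra6 and Pira2, which passed through the sgSgf29 libraries alone, are left out of these counts. Of 5 genes that passed through both groups but whose role was not classed, 1 rose, 1 fell and 3 were not called. Roles were assigned with earlier results of these data known, and whether the 2 roles differ in size was not tested.

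**Figure D4:**
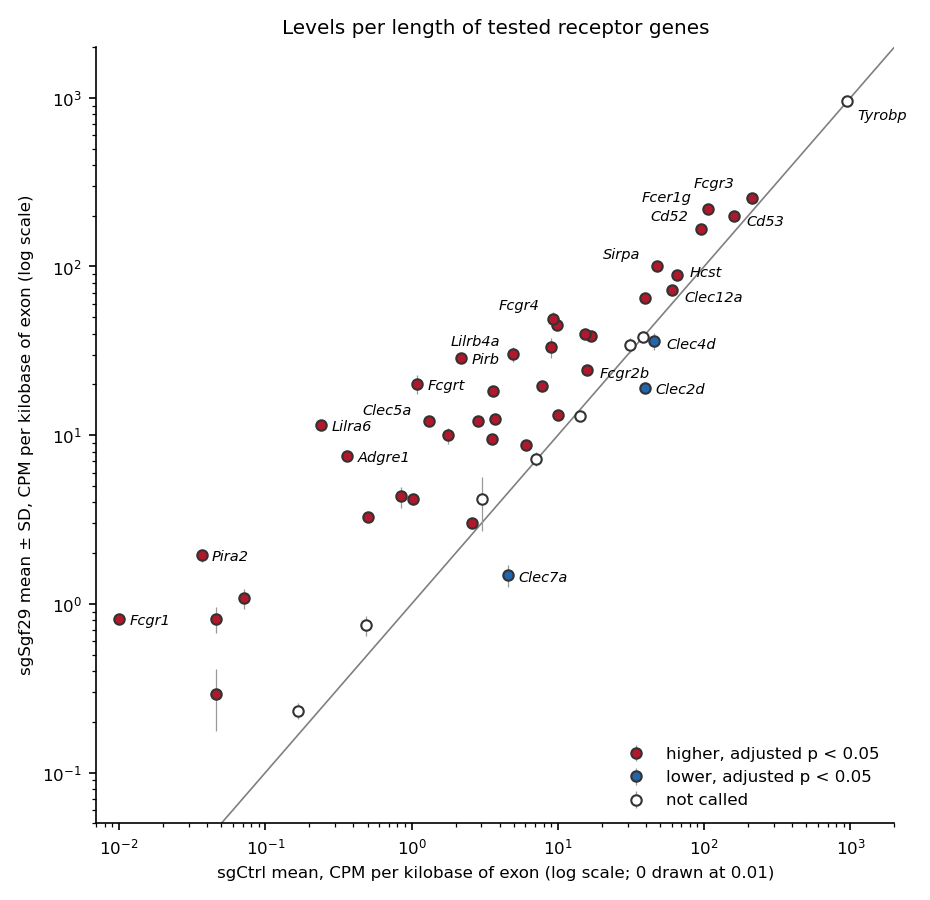
Mean level of the 48 tested receptor genes in sgSgf29 (vertical, ± SD of 3 libraries) against sgCtrl (horizontal), in CPM per kilobase of exon on log axes, with the line of equal levels and the colours red for higher, blue for lower and open for uncalled. Genes low in sgCtrl, such as Pira2 and Lilra6, lie furthest above the line, and Tyrobp lies on it at the top.

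Inside the cell, the receptors feed a shared set of kinases, adaptors and phosphatases. The list of 49 signalling partners holds such genes, with GTPases, NFAT transcription factors and Cd47, the surface ligand of the Sirpa product. Of the 49, 45 were tested, of which 35 rose and 5 fell, against 35.4% and 34.4% of all tested genes. The median log2 fold change was 0.50. Tested against 1.5-fold, 14 of the 45 rose and 1 fell. The list was drawn up with earlier results of these data known, so its counts describe these genes only. The 4 genes that rose with the smallest adjusted p were Syk, Lyn, Pik3ap1 and Vav3. Syk, the kinase docked by DAP12 and the gamma chain, went from 103 ± 6.24 CPM (SD, n = 3) to 224 ± 0.594 CPM (log2 fold change 1.12 ± 0.0645, SE, adjusted p = 4.94e-12). Lyn, a SRC-family kinase of both activating and inhibitory receptors, went from 51.9 ± 3.01 to 114 ± 2.57 CPM (adjusted p = 5.74e-12). Pik3ap1, an adaptor of phosphoinositide 3-kinase, had 13.3 ± 1.69 and 42 ± 3.23 CPM, and Vav3, an exchange factor for RAC proteins, had 13.7 ± 1.18 and 32.6 ± 1.59 CPM (adjusted p = 1.13e-11 and 3.87e-10). The genes that fell were Tec (-0.66 on the log2 scale), Vav2 (-0.85), Card9 (-0.33), Plcg1 (-0.36) and Cd47 (-0.16). Card9 carries signals of Clec7a and Clec4d, which also fell, and of Clec4e and Clec4n, which rose. The phosphatases of the inhibitory motif, Ptpn6, Ptpn11 and Inpp5d, were among the genes that rose, by 0.32, 0.21 and 0.38 on the log2 scale.

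**Figure D5:**
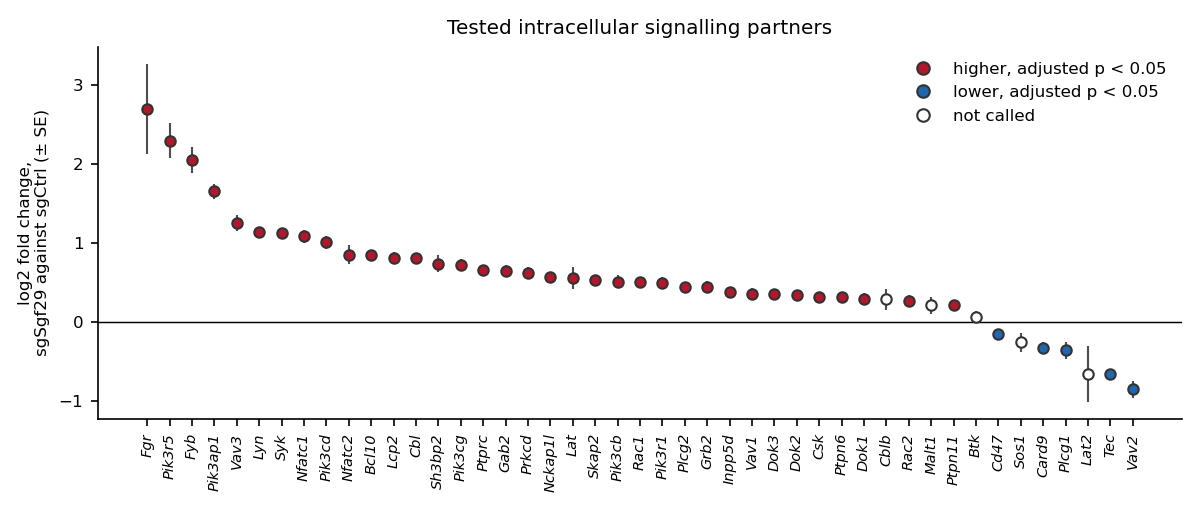
Log2 fold change of sgSgf29 against sgCtrl (vertical axis, ± SE) for the 45 tested signalling partners, ordered by value, with red, blue and open points for higher, lower and uncalled genes. The 35 red points include Syk and Lyn near 1.1, and the 5 blue points reach down to Vav2 at -0.85. The blue points include Cd47, a surface protein.

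Markers of mature myeloid cells moved in the same comparison. Of 6 neutrophil markers 4 rose (Ngp, Mmp9, Cxcr2 and Ly6g) and 2 fell (Camp and Ltf). Their summed level was 2280 to 2470 CPM under sgCtrl and 3810 to 4010 CPM under sgSgf29. Ngp, the largest of them, went from a mean of 1181 CPM to 2454 CPM. Of the monocyte and macrophage markers 3 were tested, of which Ccr2 rose, Ly6c2 fell and Csf1r was not called. The sum went from 1390 to 1580 CPM down to 1080 to 1130 CPM. It was mostly Ly6c2, with means of 1490 CPM under sgCtrl and 1035 CPM under sgSgf29, whereas Ccr2 went from 7.62 to 69.1 CPM. C1qa, which marks macrophages, was at 0 in all libraries, Mertk had no read in sgCtrl, and the dendritic cell marker Itgax rose while its list stayed at or under 3.16 CPM. The part of these shifts in the receptor levels was not tested.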

How the data were processed

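The authors deposited raw counts per gene for all 6 RNA libraries in 1 table, and every value here derives from these counts. The submitters' processing notes name STAR 2.6.0a, the GRCm38 build and edgeR, and the table ends in the 5 summary entries typical of htseq-count, although the study's methods name another counting tool. Which annotation and strand setting served, and how multiply matching reads were treated, is not given in the sources used here. The summary entries held 25.8% to 31.4% of the table and entered neither library sizes nor tests.

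Genes were filtered with filterByExpr (edgeR 4.0.16, R 4.3.3; count minimum 10, total minimum 15), scaled by TMM and compared with edgeR's quasi-likelihood test on group alone, with Benjamini-Hochberg adjustment over all 11169 tested genes and an adjusted p under 0.05 made a call. The fitted biological coefficient of variation was 6.61%. Reads set the precision: 3 counts, taken as the floor, correspond to 0.135 to 0.201 CPM in a library, and intervals on counts cover counting error only. Libraries of a group differed by more than counting error, so none was counted as a duplicate. The procedure was tested on artificial counts drawn for this comparison with 11084 genes. It recovered 86 of 100 changes of 1.5-fold and 95 of 100 changes of 2-fold, with 10 false calls among 191. Only those genes were changed, in balanced directions, and every gene was drawn at the same dispersion. In the data 3957 genes were called higher and 3842 lower. The trial therefore does not measure scaling or false calls under changes as broad as these.

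The genes, their roles, the 49 signalling partners and the cell type markers were chosen with earlier results of these data known. Values per library are given for genes whose higher group mean reached 5 CPM, for the 3 adapters and for genes that fell. Other tested genes are given by counts or by the largest change of a family, and partners by the 4 smallest adjusted p in each direction. Fcgr1, Clec4b2 and Siglecg are given in more detail than this rule sets, and were chosen for that after their values were seen. Cd47, Ptpn6, Ptpn11, Inpp5d and the marker genes given with a direction were named after their values were seen. A few genes of the marker lists are not reported here. Levels per length divide CPM by the union of GENCODE vM21 exons, which also gave exon overlaps and the 100-base stretches of transcripts, while coordinates are those of RefSeq on GRCm38.p6. Upstream sequences come from RefSeq, and were aligned with Biopython 1.88. Alternatives were other scalings, filters, thresholds and tests (DESeq2 1.42.0, limma 3.58.1), the replicate number as a block, and each library left out in turn.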

Additional observations from a re-analysis of the deposited data

How the results depend on the processing

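The count of receptors that rose lay between 36 and 43 under all alternatives but 1, against 37 in the main analysis, and was 29 when each gene was tested against a change of 1.5-fold. The count that fell was 2 or 3 throughout. Of the 48 tested receptors, 31 kept both direction and call under every alternative run, 15 gained or lost a call under at least 1, and 5, none of them called in the main analysis, changed sign.

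Library size in place of TMM moved the median of all genes to 0.24 and that of the receptors to 1.51 on the log2 scale. It turned the 3957 genes that rose and 3842 that fell into 5575 and 2385, with 43 receptors higher and 2 lower, and left 2 signalling partners lower. Tested against 1.5-fold, 1481 genes rose and 1022 fell, with 14 partners higher and 1 lower. With 1 library left out, partners that fell numbered 3 to 7, the 3 without sgSgf29 replicate 2, and the receptor median ranged from 1.26 to 1.33.

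The changes of sign were small. Tyrobp read -0.0050 with RLE scaling, -0.0020 with TMM without ribosomal protein genes and -0.0023 in DESeq2, and -0.037 to 0.058 with 1 library left out. Treml2 read 0.024 with upper-quartile scaling, 0.23 with library size, 0.0020 with no filter and 0.0017 with a filter of 1 CPM, and -0.046 to 0.068 with 1 library left out. Clec2i read 0.11 with library size, Clec11a -0.026 to 0.11 with 1 library left out, and Clec4f -0.044 without sgCtrl replicate 3 and 1.31 without sgCtrl replicate 2. The cause was not tested.

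The replicate numbers did not pair the libraries: deviations from the group means correlated across genes at 0.00507, 0.0555 and 0.0781 for equal numbers, and not every library correlated best with its own number. With the replicate number as a block, 37 receptors rose and 3 fell, 36 partners rose and 6 fell, and 4059 genes rose and 3937 fell. Genes near the floor in sgCtrl, such as Fcgr1 and Pira2, have folds that depth leaves uncertain.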
